A study of Mus musculus with 2 samples.

Results

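Regulatory T cells were taken from single-cell RNA libraries of lungs of BALB/c mice that carried 4T1 tumours, a mouse mammary carcinoma line placed in the mammary fat pad. Lungs were collected on day 14 after inoculation. The IgG library came from mice given an IgG antibody, and the S100A4-11 library from mice given the S100A4-11 antibody, which the series title ties to inhibition of S100A4, a small calcium-binding protein. All mice carried tumours, the dose and the number of animals behind each library are not given in the sources used here, and each group had 1 library. Differences between the libraries therefore had no replicate check, and the intervals below (exact, 95%) cover counting error only. A regulatory T cell was a barcode with at least 200 genes, at most 15% mitochondrial UMIs (counted molecules), at least 1 UMI of Cd3e, Cd3d or Cd3g and none of Cd8a or Cd8b1. It also held Foxp3, or both Ctla4 and Ikzf2, and no UMI of 6 genes of B cells, NK cells, endothelial cells and myeloid cells. Members were thus selected on measured UMIs of their own marker genes. The rule found 148 regulatory T cells, 59 with IgG and 89 with S100A4-11, among 26650 kept cells (14285 and 12365).

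Regulatory T cells restrain other immune cells. Their identity rests on the transcription factor FOXP3, and they are known for high levels of the IL-2 receptor alpha chain CD25, encoded by Il2ra, through which they take up IL-2, and of CTLA-4, which strips costimulatory ligands from antigen-presenting cells. Resting regulatory T cells recirculate through lymph nodes with the help of CCR7, whereas effector cells in tissues such as the lung carry KLRG1, the IL-33 receptor ST2 and the integrin CD103, and can release amphiregulin, a growth factor for epithelium. Helios, encoded by Ikzf2, is a transcription factor found in most regulatory T cells that arise in the thymus.

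The genes of the rule are given as a description only. Foxp3, Ctla4 and Ikzf2 occurred together in 25 of 59 IgG cells and 49 of 89 S100A4-11 cells, and Foxp3 occurred with Ctla4 alone in 12 and 13 cells. Ctla4 and Ikzf2 without Foxp3 admitted 20 IgG cells (33.9%) and 22 S100A4-11 cells (24.7%). Members just inside the rule by Foxp3, with exactly 1 Foxp3 UMI and neither other gene, numbered 1 and 2. Cells admitted by Ctla4 and Ikzf2 with only 1 UMI of either gene also lay at its limit and were not counted here. Just outside the rule, 72 and 66 cells held Ctla4 alone and 22 and 20 held Ikzf2 alone. Where Foxp3 was detected its median was 3 UMIs per cell in both libraries, with at most 11 in IgG and 10 in S100A4-11. Foxp3 was found in 0.127% of IgG B cells (0.00322% to 0.706%) and 0.0864% of S100A4-11 B cells (0.00219% to 0.481%), and in 0.186% and 0.321% of neutrophils, against 6.39% and 10.8% of T cells without Cd8a or Cd8b1. Median depths in that order of cell types were 3207, 4706 and 3808 UMIs in IgG and 3055, 4410 and 3768 in S100A4-11. A Cd4 UMI was present in 25 of 59 and 50 of 89 regulatory T cells, since the rule does not ask for it.

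The cells carried the 6 T cell markers (Cd3e, Cd3d, Cd3g, Trac, Trbc1 and Trbc2) at a summed level of 3009 UMIs per 1000000 UMIs of the class (CPM) in IgG and 2853 CPM in S100A4-11. NK cell markers were at 0 UMIs in IgG and 1 UMI in S100A4-11, and the exclusion genes were at 0 in both. Markers of monocytes or macrophages summed to 388.8 and 356.6 CPM against 171.8 and 42.0 CPM in the Cd4 comparison cells defined below. They were mainly Lyz2 (236.2 and 160.9 CPM, with 52 of 65 and 77 of 88 UMIs in 1 cell each) and Ccr2 (152.6 and 192.0 CPM), while Csf1r, an exclusion gene, and Adgre1 were at 0, and the part of monocyte RNA was not tested. Ighm, the immunoglobulin heavy chain of naive B cells, was however detected in 33.9% and 49.4% of the regulatory T cells (170.8 and 259.7 CPM) but in 16.3% and 11.9% of comparison cells (48.2 and 40.8 CPM). The 5 B cell markers together summed to 174.4 and 281.6 CPM in regulatory T cells and 48.2 and 40.8 CPM in comparison cells, and the part of B cell RNA in this was not tested. In 1 IgG cell, 24.4% of its 13384 UMIs came from 4 markers of alveolar type 2 cells, the surfactant-making epithelium, and that cell held no Foxp3. It raised the summed level of those markers to 12070 CPM over IgG regulatory T cells, against 64.0 CPM over S100A4-11 regulatory T cells. Among S100A4-11 cells, 1 cell drew 1.01% of its 7837 UMIs from monocyte or macrophage markers and another 0.982% of its 19958 UMIs from airway epithelial genes. Scrublet called none of the 148 cells a doublet, and no barcode of a regulatory T cell in either library was also kept in the other. The regulatory T cells had a median of 3737 UMIs in IgG (1481 to 17164) and 4165 UMIs in S100A4-11 (1653 to 45082), with 275215 and 546848 UMIs in all.

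Regulatory T cells made up a larger share of T cells in the S100A4-11 library. They were 59 of 805 T cells with IgG (7.33%, 5.63% to 9.35%) and 89 of 826 with S100A4-11 (10.8%, 8.74% to 13.1%), a ratio of 1.47 (1.05 to 2.08). Among T cells without Cd8a or Cd8b1 the shares were 9.67% and 14.4%, a ratio of 1.49 (1.06 to 2.11). The 2 shares of T cells overlapped narrowly in their own intervals, from 8.74% to 9.35%. With Foxp3 alone as the rule, 39 and 67 cells remained and the ratio was 1.67 (1.11 to 2.55). Without the 6 exclusion genes, 86 and 113 cells met the rule and the ratio was 1.37 (1.03 to 1.84). Thinning every cell to 1000 UMIs gave 31 and 56 cells and a ratio of 1.74 (1.10 to 2.79), after 953 and 889 shallower cells of any type were left out. At 2000 UMIs the ratio was 1.44 with an interval that reached 1 (0.998 to 2.08).

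Other T cell classes did not show such a difference. Cells with Cd8a or Cd8b1 were 24.2% of IgG T cells and 25.2% of S100A4-11 T cells, a ratio of 1.04 (0.851 to 1.27). Cd4 comparison cells, which passed the same gates with at least 1 Cd4 UMI but lacked Foxp3, Ctla4 and Ikzf2, numbered 190 and 202 and kept a ratio of 1.04 (0.846 to 1.27). Set against these comparison cells directly, regulatory T cells were 23.7% of the pair in IgG and 30.6% in S100A4-11, and that ratio of 1.29 had an interval that included 1 (0.919 to 1.83). The difference therefore held by counting error against all T cells but not against Cd4 comparison cells alone.

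**Figure D1:**
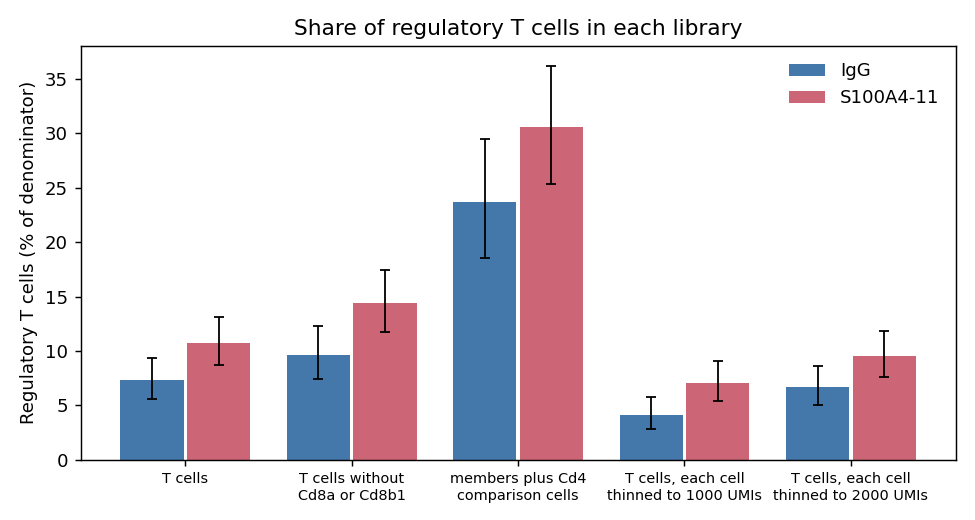
Regulatory T cells as a percentage of each denominator (vertical axis, %) in the IgG library (blue) and the S100A4-11 library (red), with exact 95% binomial intervals as error bars. The S100A4-11 bar is the higher one for all 5 denominators or depths, and the intervals of each pair overlap.

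To describe what else the cells expressed, summed UMIs of regulatory T cells were compared with those of the 392 Cd4 comparison cells over both libraries, with library as a term (edgeR quasi-likelihood test, Benjamini-Hochberg adjusted p under 0.05). Of 7184 genes tested outside the rule, 707 were higher in regulatory T cells (9.84%) and 644 were lower (8.96%). DESeq2 on the same sums called 147 higher (2.05%) and 159 lower (2.21%). The comparison rests on 2 libraries and 1 residual degree of freedom, and edgeR shared a single estimate of the spread across genes, so the DESeq2 calls are given beside the lists. With the rule's own genes included, 1334 of the genes edgeR called pointed the same way in both libraries and 21 did not.

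The regulatory core genes were higher. All 19 tested genes of this list of 20 rose (DESeq2: 10), with a median log2 difference of 2.41 against -0.02 over all genes tested, and the other member, Plagl1, held too few UMIs to be tested. Il2ra was at 181.7 CPM in IgG regulatory T cells and 288.9 CPM in S100A4-11 ones, against 0 and 9.59 CPM in the comparison cells. The summed level was higher in both libraries. In IgG it was 49.0-fold higher when 3 UMIs were taken as the limit for a count of 0. The exact interval of that library's ratio began at 38.4. Il2ra was detected in 47.5% and 47.2% of regulatory T cells. The fitted log2 difference of Il2ra was 5.33 ± 0.35 (SE, adjusted p = 4.81e-48). Tnfrsf9, the costimulatory receptor 4-1BB, stood at 207.1 and 179.2 CPM against 4.94 and 2.40 CPM. Tigit, an inhibitory receptor, stood at 236.2 and 290.8 CPM against 21.0 and 22.8 CPM. Tigit was detected in 39.0% and 51.7% of regulatory T cells, against 7.37% and 6.44% of comparison cells.

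Receptors of the TNF family and IL-2 signalling followed. Tnfrsf4, which encodes OX40, rose by 2.61 ± 0.19 on the log2 scale (501.4 and 526.7 CPM against 60.6 and 82.7 CPM). Tnfrsf18, which encodes GITR, rose by 1.33 ± 0.18. Il2rb, the beta chain of the IL-2 receptor, rose by 2.41 ± 0.22. Icos, a costimulatory receptor of activated T cells, was the most abundant of these at 1090 and 971.0 CPM, against 208.9 and 256.6 CPM. Further members act on the TGF-beta that regulatory T cells present: Lrrc32, which anchors its latent form at the surface, was in 13.6% and 20.2% of regulatory T cells and in 0.526% and 0% of comparison cells, and Itgb8, part of the integrin that releases it, rose by 3.70 ± 0.78. Entpd1 and Nt5e, which turn extracellular ATP into adenosine, rose by 1.84 ± 0.56 and 1.96 ± 0.46. DESeq2 did not call Itgb8, Entpd1 or Nt5e (adjusted p = 0.19, 0.87 and 0.49).

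Effector and tissue genes were higher as well. Of 21 tested genes of this list of 22, 18 rose and none fell (DESeq2: 11), with a median log2 difference of 2.55. Klrg1, a marker of terminally differentiated effector cells, had 43 UMIs in IgG regulatory T cells and 75 in S100A4-11 ones, against 0 and 1 UMI in the far larger comparison pools. It was thus detected in 20.3% and 22.5% of regulatory T cells. Il1rl1, which encodes ST2, was in 16.9% and 29.2% of them and in 1.05% and 0.495% of comparison cells. Il1rl1 and Gata3 are also markers of group 2 innate lymphoid cells, whose 6 markers summed to 254.3 and 217.6 CPM against 54.4 and 52.8 CPM, with Il5 and Il13 at 0 UMIs in every class. Itgae, which encodes CD103 and holds T cells near epithelium, was in 22.0% and 36.0% and reached 101.7 and 155.4 CPM, against 2.47 and 0 CPM. Areg, which encodes amphiregulin, reached 170.8 and 288.9 CPM against 12.4 and 2.40 CPM, from 9 of 59 and 29 of 89 cells. Gzmb, the cytotoxic protease granzyme B, had 39 and 62 UMIs in regulatory T cells against 0 and 1.

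Among transcription factors of this list, Maf rose by 2.57 ± 0.28, Rora by 1.88 ± 0.18 and Nfil3 by 2.21 ± 0.27. Gata3 rose by 1.11 ± 0.26 in edgeR (adjusted p = 0.000224) but was not called by DESeq2 (adjusted p = 0.53). Prdm1, which encodes BLIMP-1, rose by 2.60 ± 0.51 (edgeR adjusted p = 4.94e-06, DESeq2 adjusted p = 0.28). Batf was not called (0.50 ± 0.22, edgeR adjusted p = 0.0946), nor was Tgfb1 (0.11 ± 0.20, edgeR adjusted p = 0.799). Tgfb1 stood at 192.6 and 214.0 CPM in regulatory T cells and 129.8 and 190.6 CPM in comparison cells, ratios of 1.48 (1.05 to 2.08) in IgG and 1.12 (0.876 to 1.43) in S100A4-11. Il10, the suppressive cytokine, was called higher by edgeR (adjusted p = 2.93e-16) but not by DESeq2 (adjusted p = 0.64). All 32 of its IgG UMIs came from 1 cell, and its 13 S100A4-11 UMIs came from 5 cells.

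Genes of naive and recirculating T cells were lower. All 13 tested genes of this list of 14 fell (DESeq2: 9), with a median log2 difference of -1.54. Igfbp4, a marker of naive T cells in mice, stood at 72.7 and 38.4 CPM against 888.7 and 986.8 CPM in comparison cells, a log2 difference of -4.42 ± 0.20 (edgeR adjusted p = 3.12e-105), and 71.4% of its S100A4-11 UMIs in regulatory T cells came from 1 cell. Lef1 and Tcf7, the transcription factors of naive and memory T cells, fell by 2.41 ± 0.15 and 2.22 ± 0.18 on the log2 scale. Satb1 fell by 2.33 ± 0.16. Dapl1 was at 0 UMIs in all 148 regulatory T cells and at 91.5 and 104.3 CPM in comparison cells. The receptors for lymph node entry and exit fell less: Ccr7 by 1.12 ± 0.12 and S1pr1 by 0.63 ± 0.15 on the log2 scale, the latter not called by DESeq2 (adjusted p = 0.27). Ccr7 remained at 861.1 and 846.7 CPM and was detected in 50.9% and 47.2% of regulatory T cells, against 92.6% and 83.2% of comparison cells.

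The gene of the antibody's target and its neighbours in the S100 family were higher in regulatory T cells. Of 8 S100 genes tested, 5 rose (DESeq2: 4) and none fell. S100a4 (chromosome 3, 90603771 to 90606045, plus strand, build mm10) stood at 570.5 CPM in IgG regulatory T cells and 590.7 CPM in S100A4-11 ones, against 34.6 and 85.1 CPM in comparison cells, a log2 difference of 3.06 ± 0.19 (edgeR adjusted p = 3.02e-52). It was detected in 50.9% and 57.3% of regulatory T cells but in 4.21% and 8.42% of comparison cells. S100a6 (chromosome 3, 90612882 to 90624181, plus strand), which lies next to it, stood at 1450 and 1284 CPM against 89.0 and 101.9 CPM. S100a10, the partner of annexin A2, was the most abundant, with 2543 and 2721 CPM against 269.4 and 326.1 CPM, and S100a11 stood at 799.4 and 802.8 CPM against 152.0 and 158.3 CPM. For each of these 4 genes both summed levels of regulatory T cells lay above both of the comparison cells, although single cells overlapped. S100a8 and S100a9, the alarmins that define neutrophils, were not called (-0.58 ± 0.31 and -0.59 ± 0.24) and lay between 32.9 and 134.4 CPM in the 4 sums.

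**Figure D2:**
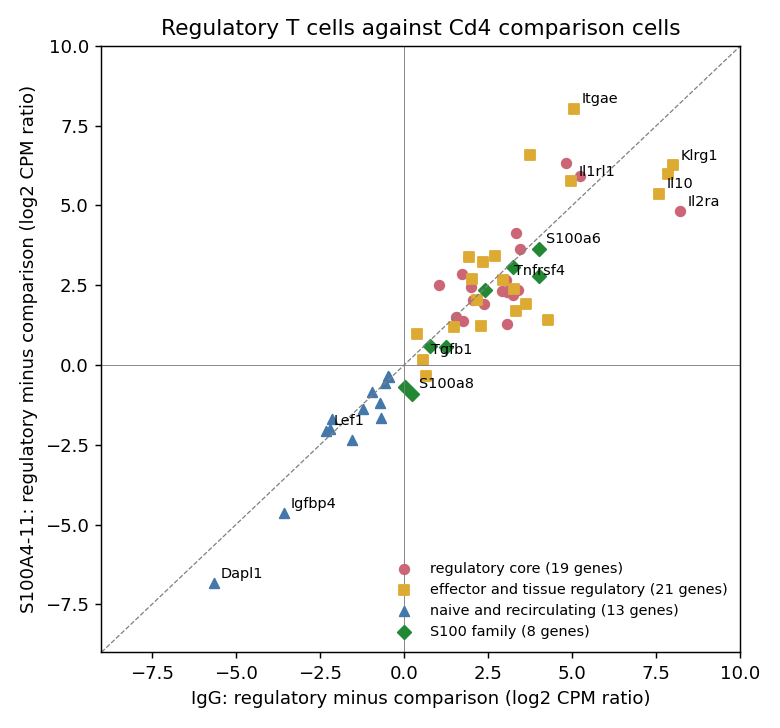
Log2 ratio of CPM, regulatory T cells over Cd4 comparison cells (pseudocount 0.5 UMIs), in the IgG library (horizontal axis) and the S100A4-11 library (vertical axis); each point is a gene and the dashed line marks equal ratios. Core genes, most effector genes and 6 of 8 S100 genes lie at the upper right and naive genes at the lower left, while S100a8 and S100a9 lie near 0 in IgG and below 0 in S100A4-11 (ratios of 0.528 and 0.613).

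Other lists were split. Of 9 tested inhibitory genes, 4 rose and 2 fell (DESeq2: 2 rose); Tox, a factor of persistently stimulated T cells, rose by 1.64 ± 0.19, and Pdcd1, which encodes PD-1, by 3.12 ± 0.45. Of 10 costimulatory genes, 8 rose and none fell (DESeq2: 1). Of 14 chemokine receptor and homing genes, 7 rose and none fell (DESeq2: 4): Ccr2 stood at 152.6 and 192.0 CPM against 12.4 and 10.8 CPM, Ccr4 rose by 2.11 ± 0.30, and Rgs1, a brake on chemokine signalling in tissue T cells, by 1.55 ± 0.17. Among 6 tested helper genes 1 rose and 1 fell (DESeq2: 0). Of 11 genes of the IL-2 and STAT5 axis 1 rose and 4 fell (DESeq2: 1 and 1), Bcl2, a survival gene of naive cells, most (-2.99 ± 0.22). Of 12 antigen receptor response genes 6 rose and 1 fell (DESeq2: 1 rose). Among 15 dissociation stress genes 1 rose and 4 fell (DESeq2: 0). Of 9 tested type I interferon genes 3 rose (DESeq2: 0), and of 17 interferon-gamma and MHC class I genes 2 rose (DESeq2: 1). Over all genes tested, edgeR called 9.84% higher and 8.96% lower. Counts of 1 or 2 genes by edgeR in these lists are not read as differing from those shares.

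All 14 tested proliferation genes rose (DESeq2: 11), with a median log2 difference of 6.08. After thinning to 1000 UMIs per cell, 0 genes of this list could be tested, so the difference was not checked at equal depth. The deepest regulatory T cells held 17164 and 45082 UMIs, and the deepest comparison cells 12622 and 14426 UMIs. The genes with the largest log2 differences over the whole table were mostly of this kind. Of the 14 that a fixed rule names, Birc5, Ccna2, Ccnb2, Tk1, Ckap2l, Fbxo5, Ncapg2, Cdca2 and Ube2c serve DNA synthesis or mitosis. The others were Il10, Klrg1 and Gzmb above, Zbtb32, a transcriptional repressor of activated lymphocytes, and Ccr3, a chemokine receptor. Birc5, which encodes survivin, was at 0 UMIs in the comparison cells of both libraries and at least 20.6-fold and 64.6-fold higher in regulatory T cells, from 3.39% and 8.99% of cells (DESeq2 adjusted p = 0.40). Of the named genes with the largest decreases, Dapl1 and Igfbp4 are given above. Vipr1, a neuropeptide receptor, was at 0 UMIs in regulatory T cells of both libraries and at 21.0 and 31.2 CPM in comparison cells. Pdlim4 stood at 0 and 3.66 CPM against 90.2 and 93.5 CPM, and Klhdc1 at 7.27 and 7.32 CPM against 84.1 and 75.5 CPM. Fmnl2, Ntrk3, 2810001G20Rik, Rapgef4 and Nsg2 completed the list with log2 differences of -4.21, -4.16, -4.16, -3.83 and -3.59. Of the named genes DESeq2 called Klrg1, Gzmb, Cdca2, Ube2c, Igfbp4, Pdlim4 and Klhdc1 and none of the others.

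The comparison cells mostly carried naive transcripts, with Lef1 in 96.8% and 90.6% of them. A second comparison, chosen after these values were seen, used the 72 and 66 cells just outside the rule that held Ctla4 without Foxp3 and Ikzf2. Against them 160 of 4431 genes were higher (3.61%) and 172 lower (3.88%). Of the core list 10 of 15 tested genes rose, Il2ra by 2.18 ± 0.30 (181.7 and 288.9 CPM against 41.6 and 54.0 CPM) and Tigit by 1.91 ± 0.28. Icos was no longer called (0.28 ± 0.15, edgeR adjusted p = 0.339), nor was Il2rb (0.62 ± 0.22, edgeR adjusted p = 0.113). Of 17 tested effector genes 6 rose: Klrg1, Itgae, Gzmb, Areg, Il1rl1 and Nfil3. Of 13 naive genes 11 fell, Igfbp4 by 3.29 ± 0.26, and all 10 tested proliferation genes rose. This second comparison was not repeated at equal depth. S100a4, S100a6, S100a10 and S100a11 rose by 1.17 ± 0.20, 1.77 ± 0.16, 1.71 ± 0.17 and 0.98 ± 0.17, with S100a4 at 192.6 and 284.1 CPM in the Ctla4 cells.

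Set against the Cd4 comparison cells, cells that met the rule without Foxp3 shared much of this profile. The 20 and 22 cells with Ctla4 and Ikzf2 only were above the comparison cells in both libraries for 19 of 19 tested core genes, 11 of them with intervals that did not overlap, and for 17 of 21 effector genes, 6 of them with such intervals. They were below the comparison cells for 12 of 13 naive genes, 7 with such intervals. Il2ra stood at 48.9 CPM (15.9 to 114) in these IgG cells and 187.7 CPM (103 to 315) in the S100A4-11 ones, against 260.2 CPM (190 to 348) and 304.9 CPM (257 to 359) in cells with Foxp3. S100a10 was also lower in them, at 1506 and 1528 CPM against 3157 and 2909 CPM, whereas S100a6 was not, at 1555 and 1635 CPM against 1388 and 1228 CPM. Klrg1 was at 0 UMIs in the 20 IgG cells of this kind and in 9.09% of the 22 S100A4-11 cells. Some effector genes counted above were higher in them than in cells with Foxp3. Cxcr6, among the 6, stood at 127.1 and 201.1 CPM against 17.4 and 2.12 CPM in cells with Foxp3. Tbx21, among the 17, stood at 68.4 and 26.8 CPM against 5.78 and 14.8 CPM. The IgG cell with alveolar type 2 transcripts was among the 20. Beside the Ctla4 cells just outside the rule, Il2ra was at 48.9 against 41.6 CPM in IgG and 187.7 against 54.0 CPM in S100A4-11. For Tnfrsf18 the values were 215.1 against 230.4 CPM and 549.6 against 266.1 CPM, and for S100a6 1555 against 351.3 CPM and 1635 against 384.8 CPM. Whether members without Foxp3 differ from the Ctla4 cells was not tested.

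**Figure D3:**
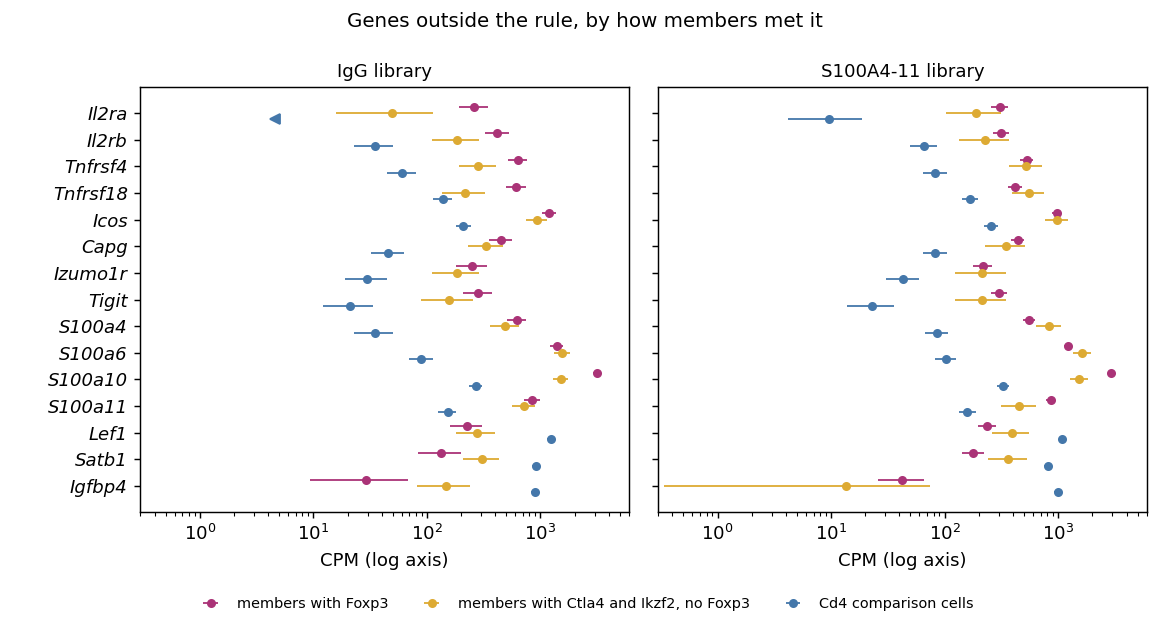
CPM (log axis) of 15 genes outside the rule in regulatory T cells with Foxp3 (purple), regulatory T cells with Ctla4 and Ikzf2 but no Foxp3 (yellow) and Cd4 comparison cells (blue) of each library, with exact 95% Poisson intervals; the arrow marks the upper limit for a count of 0. Both kinds of regulatory T cell lie above the comparison cells for the first 12 genes and below them for Lef1, Satb1 and Igfbp4.

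Within regulatory T cells, expression was then compared between the libraries as a ratio of CPM, S100A4-11 over IgG. No test between single libraries was possible, and a gene is called higher or lower at a ratio of at least 1.5 either way with an interval that excludes 1. Of 5633 genes with at least 20 UMIs, 307 were called higher (5.45%) and 215 lower (3.82%). The genes of the rule, which every member had to hold in part, are given as a description: Foxp3 stood at 439.7 and 409.6 CPM, Ctla4 at 1344 CPM in both, and Ikzf2 at 628.6 and 598.0 CPM. Of 18 core genes measured, 1 was called higher and 1 lower, and their median log2 ratio was -0.08 against 0.03 over all genes. Il2ra was the higher one, at 1.59-fold (1.15 to 2.23), but it was found in 28 of 59 and 42 of 89 cells and fell to a ratio of 0.977 when every cell had the same weight. Nt5e was the lower one, at 76.3 and 32.9 CPM. S100a4 did not differ beyond counting error, with a ratio of 1.03 (0.853 to 1.26), nor did S100a10 (1.07, 0.977 to 1.17), S100a11 (799.4 and 802.8 CPM) or S100a6 (1450 and 1284 CPM). In comparison cells S100a4 was 2.46-fold higher in the S100A4-11 library (1.57 to 3.96). That ratio rested on few cells, with 28 UMIs in 8 IgG cells and 71 UMIs in 17 S100A4-11 cells.

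Effector genes moved in both directions. Of 19 measured, 3 were called higher and 2 lower. Areg was 1.69-fold higher (1.22 to 2.40) and was detected in 15.2% of IgG and 32.6% of S100A4-11 regulatory T cells. Nfil3, a transcription factor of effector lymphocytes, was 1.93-fold higher (1.27 to 3.01; 14 and 45 cells), and Prdm1 2.33-fold (1.07 to 5.79; 5 and 17 cells). Il10 was called lower, with all IgG UMIs in the 1 cell described above, and Bhlhe40 at 0.611 (0.472 to 0.792). Itgae had a ratio of 1.53 whose interval reached 1 (0.986 to 2.43), and Klrg1 a ratio of 0.878 (0.596 to 1.31). In naive genes, Il7r (0.614, 0.498 to 0.756), Tcf7 (0.604, 0.408 to 0.897) and Id3 (0.378, 0.163 to 0.850) were called lower, while Ccr7 (0.983, 0.839 to 1.16) and Lef1 (1.06, 0.786 to 1.44) were level and the list's median log2 ratio was 0.0081.

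At the level of single cells, at least 1 of 5 effector genes (Klrg1, Il1rl1, Itgae, Areg, Gzmb, chosen after the values were seen) was detected in 28 of 59 IgG regulatory T cells (47.5%, 34.3% to 60.9%) and 55 of 89 S100A4-11 ones (61.8%, 50.9% to 71.9%). After thinning each cell to 1000 UMIs the shares were 28.8% (17.8% to 42.1%) and 48.3% (37.6% to 59.2%), and these intervals overlapped as well. In comparison cells the effector genes were found in 3.68% and 1.98%. A T cell receptor beta variable segment was counted in 53 and 75 regulatory T cells, 18 segments in each library, and the most frequent, Trbv13-2, was in 15.1% and 14.7% of those cells, against 16.1% and 15.5% in comparison cells.

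Proliferation genes were higher in S100A4-11 regulatory T cells. All 15 were above a log2 ratio of 0 and 14 were called, with a median of 1.64, against -0.04 in comparison cells and 0.03 over all genes. Mki67, a nuclear protein of cycling cells, stood at 156.2 CPM in IgG and 455.3 CPM in S100A4-11, a ratio of 2.91 (2.10 to 4.13). Top2a, a DNA topoisomerase, stood at 50.9 and 294.4 CPM, a ratio of 5.79 (3.35 to 10.8), and Tyms, needed for thymidine synthesis, was the member not called (1.23, 0.670 to 2.35). These UMIs came from few cells, 7 and 14 for Mki67 and 4 and 15 for Top2a.

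Cycling cells, with at least 2 of the 15 genes, were 5 of 59 in IgG (8.47%, 2.81% to 18.7%) and 13 of 89 in S100A4-11 (14.6%, 8.01% to 23.7%). The ratio of these shares, 1.72, had an interval that included 1 (0.577 to 6.18), so the share of cycling cells did not differ beyond counting error. The transcript intervals above count UMIs and not cells, and 1 cell held 57.1% of the Top2a and 44.2% of the Mki67 UMIs in IgG. They therefore do not cover the spread between cells, and a transcript difference beyond it was not shown. At least 8 of the 15 genes were found in 3 and 8 cells. The cycling cells were large, with median depths of 12509 and 14726 UMIs against 3573.5 and 3713 UMIs in the others, and held 21.7% and 40.5% of all UMIs of the class. Their weight therefore differed between the sums of the 2 libraries. When every cell had the same weight the list's median log2 ratio was 1.26. Without cycling cells the ratio of Mki67 was 0.662 (0.0887 to 4.94), but Mki67 is among the genes that define those cells. Leaving them out therefore removes its UMIs by definition. Of the cycling cells 4 of 5 and 13 of 13 held Foxp3. In comparison cells only 1.05% and 1.49% were cycling.

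**Figure D4:**
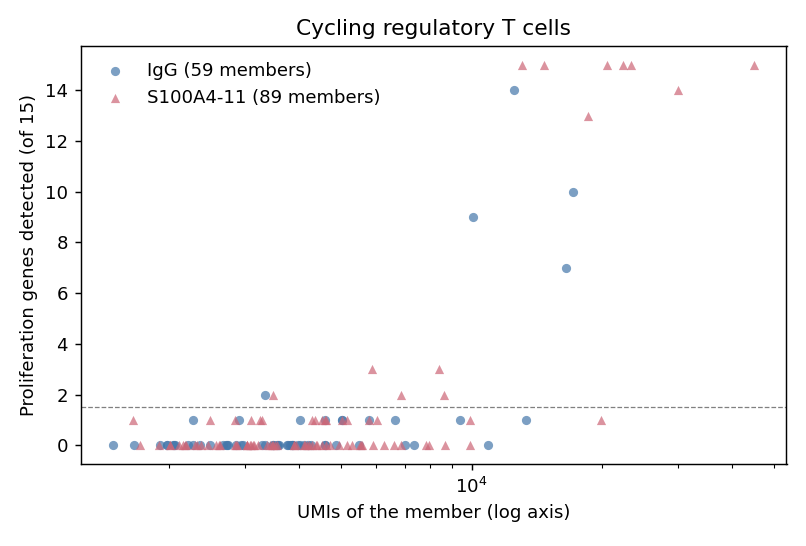
Number of 15 proliferation genes detected in each regulatory T cell (vertical axis) against its UMIs (log axis), for 59 IgG cells (circles) and 89 S100A4-11 cells (triangles); the dashed line separates cells with at least 2 genes. Cells with at least 8 genes, 3 in IgG and 8 in S100A4-11, are among the deepest of each library.

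Between the libraries, 2 of 17 interferon-gamma and MHC class I genes were called lower, and 2 of 8 measured type I interferon genes. Of all genes, 3.82% were called lower. None of 17 interferon-gamma and MHC class I genes was above 0, and their median log2 ratio was -0.34, against 0.0013 in comparison cells. The 2 called of the 17 were Iigp1, an immunity-related GTPase, at 72.7 and 14.6 CPM (0.201, 0.0767 to 0.477), and Gbp2, a guanylate-binding protein, at 156.2 and 71.3 CPM (0.457, 0.288 to 0.721). Irf1, a transcription factor of the response, had a ratio of 0.712 (0.536 to 0.947). For 8 measured type I interferon genes the median was -0.43, with 1 of 8 above 0 and 2 called, and in comparison cells it was 0.37.

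These values depended on how cells were weighted. With every cell given the same weight the type I median was 0.0017 and the interferon-gamma median -0.26. Without cycling cells the interferon-gamma median was -0.23.

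The antigen receptor response genes summed to 5850 CPM in IgG and 4826 CPM in S100A4-11, a ratio of 0.825 (0.775 to 0.878) against 0.993 (0.941 to 1.05) in comparison cells. Of these 12 genes, 2 were above 0 and 2 were called lower. Without cycling cells their median log2 ratio was 0.045, against -0.17 with them. Median log2 ratios were 0.04 for inhibitory, -0.11 for costimulatory, -0.21 for IL-2 and STAT5, -0.17 for antigen receptor response, -0.06 for dissociation stress, 0.18 for chemokine receptor and homing and -0.09 for S100 genes. Nr4a1, an immediate response gene of the antigen receptor, was at 0.646 (0.558 to 0.749) in sums and 0.854 with the same weight for every cell. Helper genes had a median of -0.42 over 6 genes, which became -0.066 with the same weight for every cell. S100a8 and S100a9 were lower, at 0.431 (0.217 to 0.850) and 0.558 (0.349 to 0.894), whereas in comparison cells both ratios were near 1 (0.952 and 0.916). Neutrophil markers as a whole summed to 214.4 CPM in IgG and 117.0 CPM in S100A4-11 regulatory T cells, and the part of free neutrophil RNA in this was not tested.

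**Figure D5:**
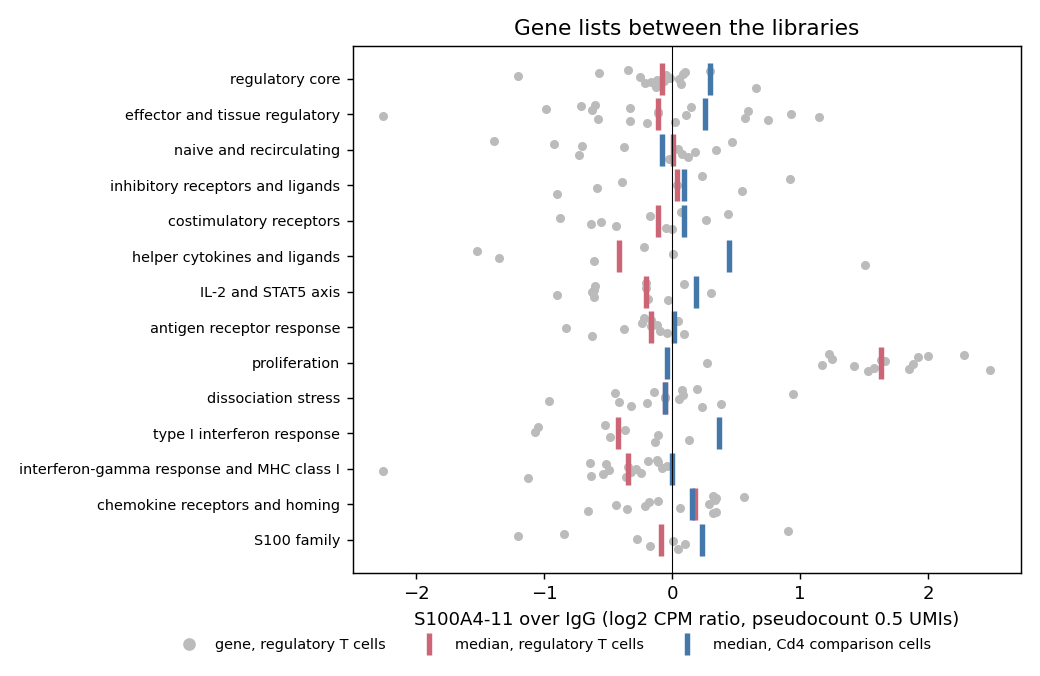
Log2 ratio of CPM, S100A4-11 over IgG (horizontal axis), of the measured genes of 14 lists in regulatory T cells (grey points), with the median in regulatory T cells (red bar) and in Cd4 comparison cells (blue bar). Proliferation genes lie to the right with a median of 1.64, and both interferon lists lie to the left with medians of -0.43 and -0.34.

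Genes that ranked first between the libraries mostly came from 1 cell each. The 8 lowest by rule were Sftpc, Lyz1, Sftpa1, Sftpb, Sftpd, Napsa, Cxcl15 and S100g, all genes of alveolar epithelium, and 98.5% of the 3033 Sftpc UMIs in IgG came from the 1 cell described above. Of the 8 highest, Sec14l3, Dynlrb2, Tppp3 and Cyp2f2 are airway epithelial genes, and all 75 UMIs of Sec14l3 in S100A4-11 came from 1 cell. All 43 S100A4-11 UMIs of Thbs1 also came from 1 cell, while Top2a, Ccnb1 and Hist2h2bb were found in 15, 9 and 11 cells and belong to cell division. For Hist2h2bb, however, 1 cell held 45.45% of the S100A4-11 UMIs.

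A second set, chosen after the values were seen, kept genes found in at least 10 cells with at most 25% of their UMIs in 1 cell of the library in which they were higher. Its highest genes were Lmna, Cks2, Ly75, Plekha2, Slc25a4, Tent5a, Rrm2 and Kmt5a. Lmna, which encodes the nuclear lamins A and C, stood at 178.0 and 442.5 CPM, a ratio of 2.49 (1.82 to 3.45) over 18 and 37 cells, and at 1.25 without cycling cells. Tent5a, a poly(A) polymerase, had a ratio of 3.15 (1.70 to 6.36) and was in 13.6% and 28.1% of cells. Plekha2 was in 8.47% and 32.6% of cells. Cks2, a partner of cyclin-dependent kinases, had a ratio of 3.42 (2.10 to 5.86) that became 0.927 without cycling cells. The lowest genes of this set included Gem, Zfp36l1, Hspa1a, Gbp6, Cept1, Kbtbd11 and Scgb1a1. Gem, a small GTPase, stood at 297.9 and 126.2 CPM, and Gbp6, a guanylate-binding protein, at 123.5 and 43.9 CPM. Zfp36l1, an RNA-binding protein that promotes mRNA decay, was found in nearly every cell (94.9% and 91.0%) and had a ratio of 0.593 (0.519 to 0.677), which became 0.779 with the same weight for every cell. Scgb1a1, the main secretory product of airway club cells, was in 33.9% of IgG and 1.12% of S100A4-11 regulatory T cells and in 35.8% and 2.48% of comparison cells, a difference that both classes shared.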

How the data were processed

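Per the file headers, the deposited matrices hold whole UMI counts per gene and barcode (14411 IgG and 12506 S100A4-11 barcodes, 85458143 and 64695542 UMIs). The kit was the 10x Genomics 5' version 2 per the labels' protocols, and the submitters' processing notes name Cell Ranger 7.1.0 and build mm10. Barcodes under 200 genes (67 and 101) or over 15% mitochondrial UMIs (59 and 40) were removed, and 264 kept barcodes occurred in both libraries. Members, gene lists and tests were chosen with earlier results of these data known. Doublets (4.39% and 4.97% by Scrublet, Scanpy 1.11.5) were kept, and free RNA was not corrected. Some genes are not reported here.

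UMIs were summed per library and class. The 4 sums were fitted in edgeR 4.0.16 (R 4.3.3, TMM, filterByExpr, library as covariate) and DESeq2 1.42.0. In simulated data of this comparison with 6839 genes, edgeR found 58.0% of 2-fold and 97.0% of 4-fold changes and called 0.0452% of unchanged genes. The changed genes were drawn from those at or above the median count, and sums were drawn independently with 1 fixed spread. These rates therefore do not cover changes in low-count genes, nor genes whose UMIs came mostly from 1 cell. List medians between libraries used genes with at least 20 UMIs and a pseudocount of 0.5 UMIs. Genes were named by rank, leaving out genes of the rule, mitochondrial, ribosomal protein, haemoglobin and antigen receptor segment genes. Against comparison cells these were the 14 highest and 10 lowest log2 differences among called genes with the same direction in both libraries and at least 20 CPM. Between libraries they were the 8 highest and 8 lowest by whichever end of the interval lay closer to 1, with at least 50 CPM and 30 UMIs in 1 library. Positions came from GENCODE M21 on the same build, and alternatives changed the rule, filters, doublets, depth, scaling, test and comparison cells.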

Additional observations from a re-analysis of the deposited data

Results flagged for a closer look

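For 3 of the genes reported here, the difference between regulatory T cells and Cd4 comparison cells pointed in opposite directions in the 2 libraries with counting intervals that excluded 1 in both; the difference between the libraries was not tested. Hspa1a, a heat shock chaperone induced during dissociation, was 2.03-fold the comparison level in IgG and 0.663-fold in S100A4-11. Atf3, a stress-induced transcription factor, was at 0.429 and 2.89, with 43.6% of its S100A4-11 UMIs in 1 regulatory T cell. Thbs1, which encodes thrombospondin 1, was at 0.184 and 4.68, with all of its S100A4-11 UMIs in 1 regulatory T cell.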

How the results depend on the processing

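No paired analysis was possible because each group had 1 library, and leaving out a library left no residual degrees of freedom. The number of regulatory T cells and of their UMIs limits every ratio. The ratio of shares stayed above 1 under every alternative for all 4 denominators, and the ratio of cycling shares stayed above 1 with intervals that included 1. Against comparison cells, the genes called higher and lower numbered 147 and 159 with DESeq2, 468 and 416 when comparison cells only lacked Foxp3 and did not hold both other genes, 179 and 210 at 1000 UMIs per cell, and 160 and 172 against the Ctla4 cells. Without cycling cells, 178 and 134 genes were called between the libraries. The Ctla4 cells, the robust spread and leaving out mixed or cycling cells were chosen after the data were seen.

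With Foxp3 alone as the rule, list medians were -0.31 for core, -0.41 for effector, -0.47 for inhibitory, -0.38 for costimulatory, -0.078 for helper, -0.42 for antigen receptor response, -0.12 for stress, -0.69 for type I interferon and -0.44 for interferon-gamma genes. With the same weight for every cell they were -0.066 for helper, 1.26 for proliferation, -0.18 for stress, 0.0017 for type I interferon, -0.26 for interferon-gamma and 0.026 for chemokine receptor genes. Without cycling cells they were 0.074 for IL-2 and STAT5, 0.045 for antigen receptor response, 0.14 for stress and -0.23 for interferon-gamma genes. At 1 UMI per gene they were -0.13 for type I interferon and 0.29 for chemokine receptor genes. Some single genes changed direction. Against the Ctla4 cells Gata3 was at -0.089, Tgfb1 at -0.30, Ccr4 at -0.041 and Rgs1 at -0.14 (log2, none called), and Tgfb1 was at -0.033 where comparison cells only lacked Foxp3. S100a9 was at 0.44 at 1000 UMIs and Gbp2 at 0.20 without cycling cells. Hspa1a was at 0.00037 with DESeq2, 0.012 at 1000 UMIs and 0.27 without cycling cells. Atf3 was at -0.023 with DESeq2, -0.13 without the library term and -0.12 without mixed cells, and Thbs1 at -0.038 with DESeq2. Between libraries and without cycling cells, the ratio was 0.662 for Ccnb1 and Mki67, 0.927 for Cks2 and 0 for Ube2c, each with an interval that included 1. Mki67 and Ube2c are among the genes that define cycling cells, so leaving those cells out removes their UMIs by definition. The ratio of Il2ra was 0.977 with the same weight for every cell, and that of Tcf7 was 1.06 with Foxp3 alone. Apart from Mki67 and Ube2c, the cause of these changes was not tested.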
